A study of Mus musculus with 82 samples.

Results

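Genes of sterol synthesis, sterol sensing and sterol efflux were followed in fibroblasts from mouse embryos (MEFs) and in primary hepatocytes of mice, with or without the energy sensor AMP-activated protein kinase (AMPK). The 33 genes were listed by role, and probe sets annotated to exactly 1 of these symbols were taken. The arrays gave 64 probe sets for 29 of the 33 genes, out of 18032 genes tested. They comprise 17 genes of the route to cholesterol, 2 of the isoprenoid branches, 6 of sterol sensing and regulation and 4 of efflux and the liver X receptor (LXR). Acat2, Pdss1, Nr1h2 and Soat1 were not analysed here. The study asked which responses to the AMPK activators 991 and AICAR need AMPK. 991 binds AMPK directly, and AICAR is converted inside cells to an AMP mimic that also acts on other AMP-sensitive enzymes.

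RNA was hybridised to Affymetrix mouse arrays after 4 h of treatment, and all cells were of C57BL/6 background. The 6 groups of each cell type were dKO with 991, dKO with AICAR, dKO with vehicle, WT with 991, WT with AICAR and WT with vehicle. The dKO cells were AMPK alpha1-/- alpha2-/-, so they lacked both catalytic subunits, the WT cells were the controls, and the vehicle was DMSO. The sample titles mark the vehicle arrays as "No Treat" in MEFs and "No" in hepatocytes. MEFs received 10 µM 991 or 2 mM AICAR, and hepatocytes received 3 µM 991 or 300 µM AICAR. The MEF groups held 4 arrays each, except 3 for WT with 991, and the labels call them technical replicates and name no separate cultures. Their p-values therefore measure technical spread, and genotype cannot be told apart from cell line in MEFs. All MEF groups were grown with fetal calf serum, and all hepatocyte groups were plated with serum, insulin, T3 and dexamethasone and then moved overnight to medium with dexamethasone and without serum. Hepatocytes were isolated by collagenase perfusion in 2 preparations from each genotype, each with 5 technical replicates of every treatment (4 for vehicle in dKO preparation 1). Technical replicates were averaged, so that n = 2 preparations in each of the 6 hepatocyte groups. Preparations of dKO and WT cells were treated as unpaired, although the sample titles number them b1 and b2 in both genotypes.

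Cells make cholesterol from acetyl-CoA through mevalonate, squalene and lanosterol. The transcription factor SREBP2, the product of Srebf2, is held with its escort SCAP in the endoplasmic reticulum by INSIG proteins when sterols are plentiful, and is carried to the Golgi, cut and sent to the nucleus when sterols are low. There it binds sterol regulatory elements, with NF-Y and Sp1 bound nearby, in promoters of the synthesis genes and of Insig1. Oxysterols activate LXR, which induces the exporters Abca1 and Abcg1 and the ubiquitin ligase Mylip. AMPK is known to restrain sterol and fatty acid synthesis by phosphorylating enzymes of both pathways.

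Promoter windows from RefSeq (build GRCm38.p6), 250 bases before to 50 bases after each start, were matched by symbol for 24 of the 29 genes. The 250 bases before the start are shown for 5 synthesis genes with large responses, for Insig1 and for Abca1, because these genes carry the differences described next. Capitals mark the letters TCACNCCAC (a sterol regulatory element), CCAAT (the NF-Y box) and GGGCGG (the Sp1 box), each in either orientation.
Hmgcs1: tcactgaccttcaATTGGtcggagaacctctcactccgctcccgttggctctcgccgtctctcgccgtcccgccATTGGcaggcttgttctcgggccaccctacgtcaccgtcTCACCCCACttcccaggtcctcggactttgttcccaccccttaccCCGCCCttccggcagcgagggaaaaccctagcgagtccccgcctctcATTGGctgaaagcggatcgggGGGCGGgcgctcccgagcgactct
Mvd: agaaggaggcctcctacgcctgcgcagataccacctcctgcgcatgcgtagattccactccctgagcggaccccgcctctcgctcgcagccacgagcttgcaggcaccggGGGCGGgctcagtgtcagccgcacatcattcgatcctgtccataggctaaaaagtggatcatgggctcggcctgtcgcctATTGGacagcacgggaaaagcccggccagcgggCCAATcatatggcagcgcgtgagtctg
Lss: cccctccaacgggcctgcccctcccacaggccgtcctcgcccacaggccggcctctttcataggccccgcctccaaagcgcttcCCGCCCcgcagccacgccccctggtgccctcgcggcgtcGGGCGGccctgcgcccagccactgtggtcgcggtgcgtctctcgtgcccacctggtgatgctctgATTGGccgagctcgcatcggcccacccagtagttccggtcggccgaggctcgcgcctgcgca
Msmo1: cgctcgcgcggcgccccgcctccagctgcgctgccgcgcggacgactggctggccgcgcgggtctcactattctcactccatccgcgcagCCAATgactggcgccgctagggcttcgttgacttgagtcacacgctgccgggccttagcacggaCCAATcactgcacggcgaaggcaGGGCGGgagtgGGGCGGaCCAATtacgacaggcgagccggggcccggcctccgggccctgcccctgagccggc
Hsd17b7: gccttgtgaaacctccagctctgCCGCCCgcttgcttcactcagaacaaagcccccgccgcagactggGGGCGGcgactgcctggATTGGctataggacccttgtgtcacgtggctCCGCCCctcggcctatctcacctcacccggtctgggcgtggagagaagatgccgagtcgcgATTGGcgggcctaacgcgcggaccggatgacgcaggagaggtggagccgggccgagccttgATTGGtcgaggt
Insig1: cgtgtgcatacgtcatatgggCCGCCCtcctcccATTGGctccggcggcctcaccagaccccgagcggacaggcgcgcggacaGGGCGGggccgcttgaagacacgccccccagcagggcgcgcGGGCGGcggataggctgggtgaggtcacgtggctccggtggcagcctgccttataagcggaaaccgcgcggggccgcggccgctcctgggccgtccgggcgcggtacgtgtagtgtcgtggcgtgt
Abca1: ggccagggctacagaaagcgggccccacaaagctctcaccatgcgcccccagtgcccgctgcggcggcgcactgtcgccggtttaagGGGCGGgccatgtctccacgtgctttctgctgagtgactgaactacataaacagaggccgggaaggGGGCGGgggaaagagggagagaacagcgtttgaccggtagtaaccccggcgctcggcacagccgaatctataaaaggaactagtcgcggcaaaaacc
In the same order, these stretches lie at chr13:119690101-119690350 (plus strand), chr8:122443423-122443672 (minus strand), chr10:76531355-76531604 (plus strand), chr8:64733579-64733828 (minus strand), chr1:169969206-169969455 (minus strand), chr5:28071162-28071411 (plus strand) and chr4:53159896-53160145 (minus strand). Each is printed 5′ to 3′ along its gene.

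The CCAAT box was found in the windows of 14 of 14 synthesis genes, 2 of 2 isoprenoid genes, 4 of 5 sensing genes and 1 of 3 efflux genes, against 42.0% of the 14368 tested genes with a window. Scap was the sensing gene without it, and Mylip the efflux gene with it. The GGGCGG box was found in 13 of 14 synthesis genes (all but Pmvk), 1 of 2 isoprenoid genes, 5 of 5 sensing genes and 2 of 3 efflux genes, against 57.5%. The strict element TCACNCCAC occurred in 1 of the 24, Hmgcs1, and in 1.45% of tested genes. The exact LXR direct repeat, AGGTCA repeated after a gap of 4 bases, occurred in 0 of the 24 and in 1 of the tested genes (0.00696%). It is so rare that its absence from the 24 says nothing about LXR sites that differ from these letters. AGGTCA alone occurred in 4 of the 24 and in 16.5% of tested genes. The single AGGTCA overlaps the repeat by construction, all 5 motifs were searched on both strands, and a match describes letters only.

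The arrays of a group resembled each other closely, with correlations to the rest of their group of 0.998 to 0.9992 in MEFs and 0.9974 to 0.9987 in hepatocytes over the 34741 probe sets matched to a gene. The median log2 intensity of an array over these probe sets was 6.571 to 6.674 in MEFs and 6.293 to 6.422 in hepatocytes. The 7 measured hepatocyte markers summed to a log2 level of 16.45 to 16.69 per hepatocyte array and 8.25 to 8.60 per MEF array. In dKO against WT cells with vehicle, Prkaa1, which encodes AMPKα1, differed by -0.09 ± 0.10 (SE, adjusted p = 0.513) in MEFs and -1.11 ± 0.09 (SE, adjusted p = 0.197) in hepatocytes. Prkaa2, which encodes AMPKα2, differed by -0.32 ± 0.08 (SE, adjusted p = 0.00116) in MEFs and -0.10 ± 0.08 (SE, adjusted p = 0.993) in hepatocytes. A probe set outside a deleted segment does not check the genotype, and the segment these probe sets cover is not stated in any source used. Values are log2 intensities, differences are log2 differences with their standard errors, and a gene is said to be called when its limma p-value, adjusted by Benjamini and Hochberg's method over all 18032 genes, was under 0.05. Arrays measure RNA from whole cultures, so fewer cells of a type and less RNA per cell cannot be told apart. Hepatocytes and MEFs were tested separately.

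In MEFs with 991, most of the sterol genes were called higher in WT cells, and in dKO cells most lay slightly above 0 with few called. In dKO MEFs 2 of the 29 were called higher and 0 lower, against 1.91% of all genes higher and 1.61% lower (3.52% either way). In WT MEFs 22 of the 29 were called higher and 0 lower, against 14.2% of all genes higher and 5.68% lower (19.9% either way). The test of the genotype difference, which here means the WT effect minus the dKO effect of a compound, was called above 0 for 15 of the 29 and below 0 for none, against 4.42% and 0.932% of all genes. The median change of the 29 was 0.08 in dKO MEFs and 0.32 in WT MEFs, beside 0.01 and 0.00 for all genes. In dKO MEFs 24 of the 29 lay above 0, including all 17 synthesis genes with a median of 0.09, and in WT MEFs 27 of the 29 did, including all 17 with a median of 0.41. Among the 17 synthesis genes the count of calls was 2 in dKO MEFs and 16 in WT MEFs, and 12 passed the test of the genotype difference. Quantile normalization lowered the share of higher among all calls to 54.4% in WT MEFs (71.4% as deposited) and to 64.6% for the genotype difference (82.6% as deposited), and the sterol genes then counted 20 higher and 0 lower in WT MEFs and 15 above and 0 below 0 for the difference.

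**Figure D1:**
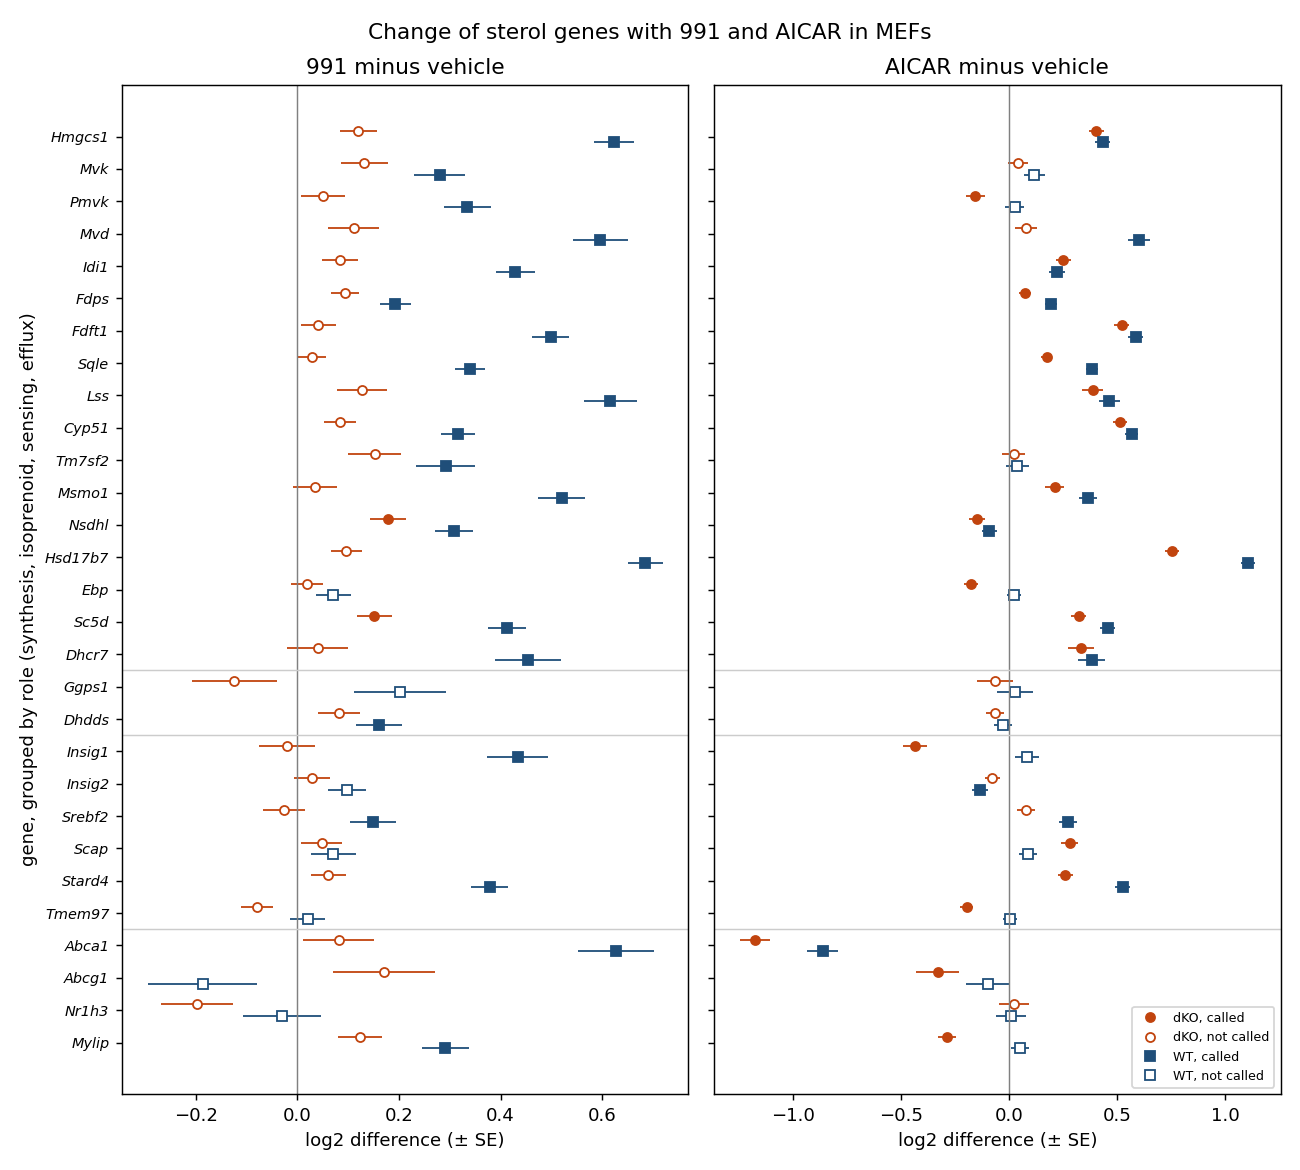
Change of each sterol gene in MEFs after 991 and after AICAR against vehicle (log2 difference, horizontal axis), in dKO and WT cells, with genes grouped by role down the page and bars for the standard error. With 991 the WT points lie to the right of the dKO points for most synthesis genes, Insig1, Stard4 and Abca1, and with AICAR both genotypes lie far left of 0 for Abca1.

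Hsd17b7, a ketosteroid reductase of the late pathway, showed the greatest 991 response among the synthesis genes of WT MEFs by its brightest probe set. Its levels in dKO MEFs were 10.04, 10.15, 10.12 and 10.08 with 991, 10.75, 10.79, 10.74 and 10.74 with AICAR and 9.99, 10.03, 9.99 and 9.99 with vehicle. In WT MEFs they were 10.05, 9.99 and 10.03 with 991, 10.49, 10.44, 10.42 and 10.42 with AICAR and 9.29, 9.33, 9.39 and 9.34 with vehicle. The arrays with 991 all lay above the vehicle arrays in either genotype, but by little in dKO cells, and WT vehicle arrays were the lowest of all. With 991 the effect was 0.10 ± 0.03 (SE, adjusted p = 0.0823) in dKO MEFs and 0.69 ± 0.03 (SE, adjusted p = 9.39e-15), or 1.61-fold, in WT MEFs. The genotype difference came to 0.59 ± 0.05 (SE, adjusted p = 2.24e-09). With the mean of its probe sets in place of the brightest, the WT effect was 0.46 and the genotype difference 0.32 (adjusted p = 0.000131). With 991, WT arrays came close to the level of dKO vehicle arrays.

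Hmgcs1, the cytosolic HMG-CoA synthase at the head of the mevalonate route, was not called between the genotypes with vehicle (0.02 ± 0.04 (SE, adjusted p = 0.764)) but responded to 991 in WT cells. Its levels in dKO MEFs were 12.09, 12.11, 12.26 and 12.25 with 991, 12.54, 12.48, 12.44 and 12.40 with AICAR and 12.03, 12.13, 12.01 and 12.07 with vehicle. In WT MEFs they were 12.67, 12.68 and 12.65 with 991, 12.50, 12.51, 12.46 and 12.43 with AICAR and 12.07, 11.9998, 12.11 and 11.99 with vehicle. The 3 WT arrays with 991 were the highest of all 23 arrays, while dKO arrays with 991 overlapped their vehicle arrays. The 991 effect was 0.12 ± 0.04 (SE, adjusted p = 0.0603) in dKO MEFs and 0.62 ± 0.04 (SE, adjusted p = 1.66e-12) in WT MEFs, and the genotype difference was 0.50 ± 0.05 (SE, adjusted p = 3.51e-07). Lss, which closes the ring to make lanosterol, measured 9.87, 9.92, 9.81 and 9.86 in dKO MEFs with 991 and 9.76, 9.77, 9.70 and 9.73 with vehicle. It measured 10.22, 10.32 and 10.22 in WT MEFs with 991 and 9.55, 9.78, 9.57 and 9.65 with vehicle. The WT groups were far apart and the dKO groups narrowly so. The 991 effect on Lss was 0.13 ± 0.05 (SE, adjusted p = 0.156) in dKO MEFs and 0.62 ± 0.05 (SE, adjusted p = 9.64e-10) in WT MEFs, with a genotype difference of 0.49 ± 0.07 (SE, adjusted p = 5.49e-05).

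The other synthesis genes that passed the test of the difference with 991 span the pathway. They were Pmvk and Mvd, the kinase and decarboxylase acting on mevalonate phosphates, and Idi1, which isomerises the product. Fdft1 and Sqle make and oxidise squalene. Cyp51, Msmo1, Sc5d and Dhcr7 strip, oxidise, desaturate and reduce the sterol ring. Their genotype differences ran between 0.23 ± 0.05 for Cyp51 and 0.49 ± 0.07 for Mvd. Mvk, Fdps, Tm7sf2 and Nsdhl were called in WT MEFs, with changes of 0.19 (Fdps) to 0.31 (Nsdhl), but their genotype differences were not called. Ebp, the sterol isomerase, was not called in either genotype, at 0.02 ± 0.03 (SE, adjusted p = 0.836) in dKO MEFs and 0.07 ± 0.03 (SE, adjusted p = 0.142) in WT MEFs. With a gene's mean over its probe sets in place of the brightest, the genotype difference was no longer called for Fdft1 (0.19, adjusted p = 0.0555) and Idi1 (0.25, adjusted p = 0.15), nor was the WT effect for Fdps (0.08, adjusted p = 0.214). After quantile normalization the WT effect on Tm7sf2 was 0.19, against 0.29 as deposited.

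Nsdhl and Sc5d were the genes called in dKO MEFs with 991, by amounts below those in WT MEFs. Nsdhl, a decarboxylating sterol dehydrogenase, measured 10.99, 10.95, 10.95 and 10.89 in dKO MEFs with 991 and 10.68, 10.84, 10.77 and 10.78 with vehicle. In WT MEFs it measured 10.59, 10.54 and 10.69 with 991 and 10.27, 10.30, 10.32 and 10.30 with vehicle. In each genotype all 991 arrays lay above all vehicle arrays. The effect was 0.18 ± 0.03 (SE, adjusted p = 0.00274) in dKO MEFs and 0.31 ± 0.04 (SE, adjusted p = 8.66e-07) in WT MEFs. Its genotype difference was 0.13 ± 0.05 (adjusted p = 0.133), with a 95% interval of 0.02 to 0.23. Sc5d, the sterol desaturase, measured 10.59, 10.74, 10.65 and 10.69 in dKO MEFs with 991 and 10.49, 10.53, 10.55 and 10.50 with vehicle. It measured 10.97, 10.90 and 11.04 in WT MEFs with 991 and 10.49, 10.58, 10.58 and 10.58 with vehicle. Neither pair of groups overlapped. The effect on Sc5d was 0.15 ± 0.03 (SE, adjusted p = 0.0111) in dKO MEFs and 0.41 ± 0.04 (SE, adjusted p = 3.04e-09) in WT MEFs, and the genotype difference was 0.26 ± 0.05 (SE, adjusted p = 0.00174). Without dKO 991 replicate 2 the dKO effect on Sc5d was 0.13 (adjusted p = 0.0528), and with the mean of its probe sets it was 0.02 (adjusted p = 0.871), with a WT effect on Sc5d of 0.25. The count of 2 in dKO MEFs became 4 without dKO 991 replicate 1 or without dKO vehicle replicate 2. At an unadjusted p under 0.05, 12 of the 29 were higher and 2 lower in dKO MEFs with 991, beside 2832 of all genes (15.71%) in either direction.

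Of the isoprenoid genes, Dhdds was called with 991 in WT MEFs and Ggps1 was not called. Dhdds, a subunit of the enzyme that builds the dolichol chain, measured 8.94, 8.93, 8.91 and 8.90 in dKO MEFs with 991 and 8.85, 8.87, 8.86 and 8.77 with vehicle. In WT MEFs it measured 9.13, 9.04 and 9.04 with 991 and 8.87, 8.87, 8.94 and 8.96 with vehicle. All 3 WT arrays with 991 lay above the WT vehicle arrays. The effect was 0.08 ± 0.04 (SE, adjusted p = 0.333) in dKO MEFs and 0.16 ± 0.04 (SE, adjusted p = 0.0118) in WT MEFs, and the WT call was lost without WT 991 replicate 2 (0.13, adjusted p = 0.0925) and after quantile normalization (0.07, adjusted p = 0.361). Ggps1, the geranylgeranyl diphosphate synthase, was not called in any of the 7 MEF comparisons. With 991 its effect was -0.12 ± 0.08 (SE, adjusted p = 0.505) in dKO MEFs and 0.20 ± 0.09 (SE, adjusted p = 0.11) in WT MEFs, where the 991 and vehicle arrays overlapped. Its genotype difference of 0.33 ± 0.12 (adjusted p = 0.113), with a 95% interval of 0.08 to 0.58, had a larger standard error than those of the synthesis genes named above.

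Among the sensing genes, Insig1 and Stard4 followed the synthesis genes. Insig1, which retains SCAP in the endoplasmic reticulum and is itself a target of SREBP2, had levels in dKO MEFs of 9.56, 9.48, 9.74 and 9.70 with 991, 9.15, 9.23, 9.23 and 9.20 with AICAR and 9.67, 9.70, 9.61 and 9.58 with vehicle. Its levels in WT MEFs were 10.05, 10.05 and 9.89 with 991, 9.72, 9.57, 9.69 and 9.60 with AICAR and 9.59, 9.39, 9.68 and 9.59 with vehicle. The WT arrays with 991 all lay above the WT vehicle arrays, and the dKO arrays with 991 spread across the dKO vehicle range. With 991 the effect was -0.02 ± 0.06 (SE, adjusted p = 0.912) in dKO MEFs and 0.43 ± 0.06 (SE, adjusted p = 5.7e-06), or 1.35-fold, in WT MEFs. The genotype difference was 0.45 ± 0.08 (SE, adjusted p = 0.000752). Stard4, a cytosolic sterol carrier, measured 10.09, 10.11, 10.06 and 10.02 in dKO MEFs with 991 and 9.94, 10.06, 10.001 and 10.03 with vehicle. It measured 10.59, 10.59 and 10.69 in WT MEFs with 991 and 10.30, 10.24, 10.21 and 10.24 with vehicle. The WT groups were apart and the dKO groups overlapped. Its 991 effect was 0.06 ± 0.03 (SE, adjusted p = 0.397) in dKO MEFs and 0.38 ± 0.04 (SE, adjusted p = 1.29e-08) in WT MEFs, with a genotype difference of 0.32 ± 0.05 (SE, adjusted p = 0.000171).

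Srebf2 itself moved less than these genes. Its levels in dKO MEFs were 10.05, 10.03, 9.97 and 9.94 with 991, 10.06, 10.11, 10.05 and 10.18 with AICAR and 10.03, 10.05, 9.98 and 10.04 with vehicle. In WT MEFs they were 9.65, 9.52 and 9.72 with 991, 9.75, 9.77, 9.77 and 9.73 with AICAR and 9.42, 9.43, 9.58 and 9.50 with vehicle. The WT arrays with 991 overlapped the WT vehicle arrays, and all dKO arrays lay above all WT arrays. The 991 effect was -0.03 ± 0.04 (SE, adjusted p = 0.825) in dKO MEFs and 0.15 ± 0.04 (SE, adjusted p = 0.0189) in WT MEFs, and the genotype difference was 0.18 ± 0.06 (adjusted p = 0.0842). The WT effect was no longer called without WT vehicle replicate 1 (0.13, adjusted p = 0.0717), without WT 991 replicate 2 (0.14, adjusted p = 0.0803), without WT 991 replicate 4 (0.10, adjusted p = 0.115) or after quantile normalization (0.06, adjusted p = 0.464). Insig2, the second INSIG protein, Scap, the SREBP escort, and Tmem97, an endoplasmic reticulum membrane protein that binds NPC1, were not called with 991 in either genotype.

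**Figure D2:**
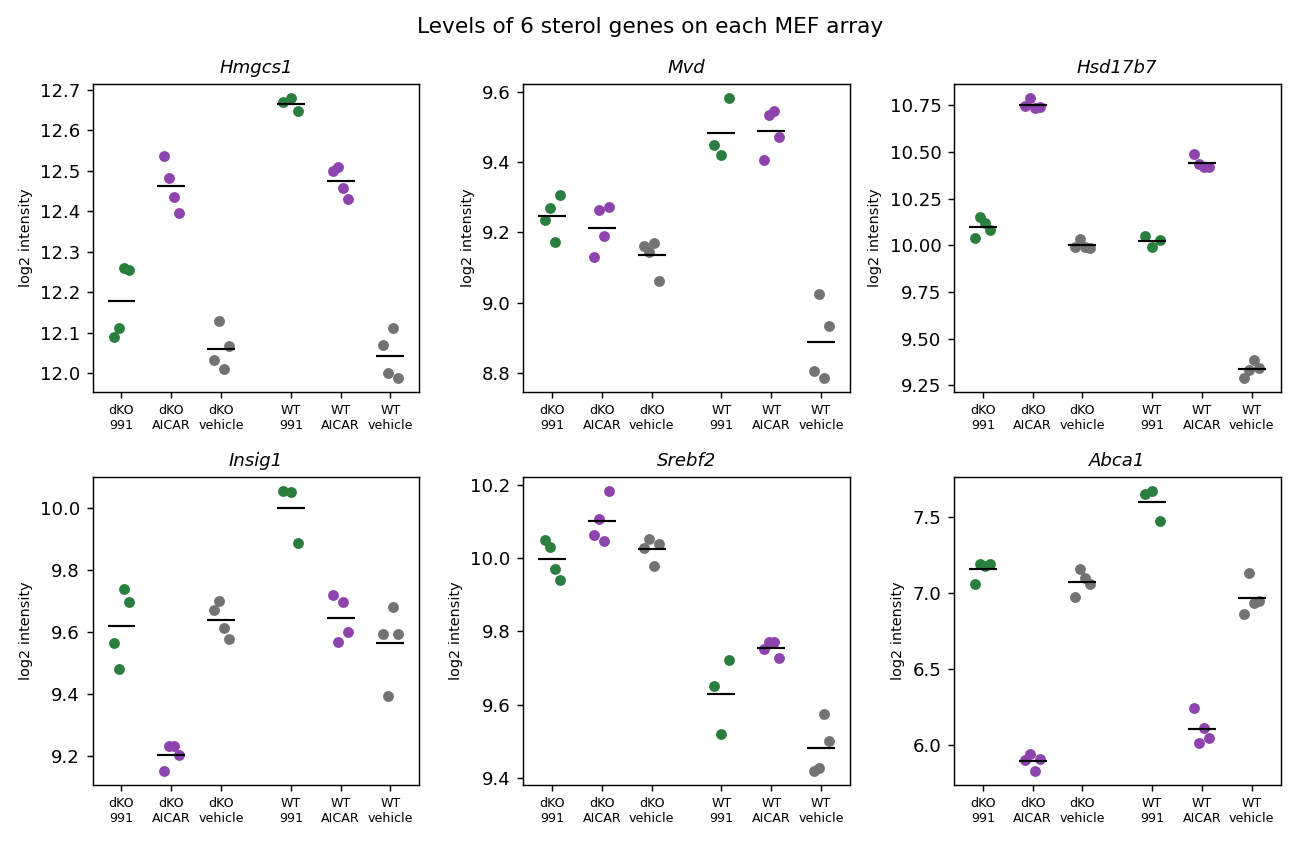
Log2 intensity (vertical axis) of Hmgcs1, Mvd, Hsd17b7, Insig1, Srebf2 and Abca1 on each MEF array, with points for arrays and bars for group means, in the order dKO 991, dKO AICAR, dKO vehicle, WT 991, WT AICAR and WT vehicle. Hmgcs1 rises above vehicle with AICAR in both genotypes and with 991 in WT cells, while Abca1 lies below vehicle with AICAR and, in WT cells, above it with 991.

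The efflux genes gave a mixed picture with 991. Abca1, which loads cell cholesterol onto apolipoproteins, had levels in dKO MEFs of 7.06, 7.19, 7.18 and 7.19 with 991, 5.90, 5.94, 5.83 and 5.91 with AICAR and 6.97, 7.16, 7.10 and 7.06 with vehicle. In WT MEFs its levels were 7.65, 7.67 and 7.47 with 991, 6.24, 6.02, 6.12 and 6.05 with AICAR and 6.86, 7.13, 6.94 and 6.95 with vehicle. WT arrays with 991 all lay above WT vehicle arrays, dKO arrays with 991 overlapped dKO vehicle arrays, and all arrays with AICAR were the lowest. With 991 the effect was 0.08 ± 0.07 (SE, adjusted p = 0.626) in dKO MEFs and 0.63 ± 0.07 (SE, adjusted p = 5.91e-07), or 1.54-fold, in WT MEFs. The genotype difference came to 0.55 ± 0.10 (SE, adjusted p = 0.00123), but 0.17 (adjusted p = 0.25) with the mean of its probe sets, which also put the WT effect on Abca1 at 0.23 (adjusted p = 0.014). Mylip, the ubiquitin ligase that removes lipoprotein receptors, measured 9.20, 9.36, 9.25 and 9.27 in dKO MEFs with 991 and 9.14, 9.15, 9.13 and 9.17 with vehicle. It measured 9.29, 9.26 and 9.25 in WT MEFs with 991 and 8.95, 8.97, 9.10 and 8.87 with vehicle. The 991 arrays lay above the vehicle arrays in both genotypes, narrowly in dKO cells. The effect on Mylip was 0.12 ± 0.04 (SE, adjusted p = 0.111) in dKO MEFs and 0.29 ± 0.05 (SE, adjusted p = 4.55e-05) in WT MEFs, and the genotype difference was 0.17 ± 0.06 (adjusted p = 0.112). After quantile normalization the WT effect on Mylip was 0.19. Abcg1, the exporter to high-density lipoprotein, and Nr1h3, which encodes LXR alpha, were not called with 991 in either genotype, with WT changes of -0.19 and -0.03.

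AICAR, given at a different dose and set against the same vehicle arrays, changed more genes in both genotypes, so the shares over all genes are also higher. In dKO MEFs 13 of the 29 sterol genes were called higher and 8 lower, against 20.6% and 19.8% of all genes (40.4% either way). In WT MEFs 14 were called higher and 3 lower, against 19.7% and 15.5% of all genes (35.2% either way). The genotype difference was called above 0 for 12 and below 0 for 1, against 7.92% and 4.21% of all genes. In dKO MEFs 11 of the 17 synthesis genes passed as higher and 3 as lower, and in WT MEFs 12 as higher and 1 as lower. Their median change was 0.21 in dKO MEFs and 0.38 in WT MEFs, beside -0.02 and -0.01 for all genes. The count of 13 for the genotype difference was 8 without dKO AICAR replicate 3, and 8 to 14 when each array was left out in turn. After quantile normalization it was 9 above 0 and 1 below, and the share above 0 among all calls was 55.0% (65.3% as deposited).

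Hsd17b7 had the largest rise of the synthesis genes with AICAR in both genotypes, and its levels were given above. The effect was 0.75 ± 0.03 (SE, adjusted p = 7.4e-19), or 1.69-fold, in dKO MEFs and 1.10 ± 0.03 (SE, adjusted p = 6.45e-22), or 2.15-fold, in WT MEFs. The WT effect was the larger by 0.35 ± 0.04 (SE, adjusted p = 1.07e-06), and by 0.20 (adjusted p = 0.00338) with the mean of its probe sets. Fdft1, squalene synthase, measured 11.38, 11.45, 11.36 and 11.37 in dKO MEFs with AICAR and 10.90, 10.90, 10.87 and 10.82 with vehicle. In WT MEFs it measured 11.48, 11.54, 11.50 and 11.42 with AICAR and 10.84, 10.92, 10.92 and 10.92 with vehicle. Both genotypes were well apart from vehicle, by 0.52 ± 0.03 (SE, adjusted p = 3.66e-14) in dKO MEFs and 0.58 ± 0.03 (SE, adjusted p = 4.66e-15) in WT MEFs. The genotype difference was 0.06 ± 0.05 (adjusted p = 0.478), with a 95% interval of -0.03 to 0.16. With 991, by its own test against the same vehicle arrays, Fdft1 changed by 0.04 ± 0.03 (SE, adjusted p = 0.603) in dKO MEFs and 0.50 ± 0.04 (SE, adjusted p = 3.2e-11) in WT MEFs. With the mean of its probe sets the WT effects on Fdft1 were 0.26 with 991 and 0.31 with AICAR.

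Cyp51, lanosterol demethylase, measured 11.77, 11.77, 11.75 and 11.70 in dKO MEFs with AICAR and 11.22, 11.25, 11.24 and 11.22 with vehicle. It measured 11.18, 11.26, 11.27 and 11.19 in WT MEFs with AICAR and 10.64, 10.65, 10.63 and 10.73 with vehicle. AICAR arrays were above vehicle arrays throughout, and dKO vehicle arrays stood close to WT AICAR arrays. The effect was 0.51 ± 0.03 (SE, adjusted p = 1.01e-14) in dKO MEFs and 0.57 ± 0.03 (SE, adjusted p = 1.96e-15) in WT MEFs, with a genotype difference of 0.05 ± 0.04 (adjusted p = 0.54, 95% interval -0.04 to 0.14). For Hmgcs1, whose levels were given above, the AICAR effect was 0.40 ± 0.04 (SE, adjusted p = 6.93e-11) in dKO MEFs and 0.43 ± 0.04 (SE, adjusted p = 2.71e-11) in WT MEFs. Its genotype difference was 0.03 ± 0.05 (adjusted p = 0.83, 95% interval -0.08 to 0.13). Idi1, Lss, Msmo1, Sc5d and Dhcr7 were also called higher with AICAR in both genotypes without a called genotype difference. Their changes ran between 0.21 (Msmo1) and 0.39 (Lss) in dKO MEFs and between 0.22 (Idi1) and 0.46 (Lss) in WT MEFs. With the mean of the probe sets the WT change was 0.07 (adjusted p = 0.463) for Idi1 and 0.55 for Msmo1, against 0.36 for Msmo1 by its brightest.

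Mvd, the decarboxylase that makes isopentenyl diphosphate, rose in WT but was not called in dKO MEFs with AICAR. Its levels in dKO MEFs were 9.24, 9.27, 9.17 and 9.31 with 991, 9.13, 9.26, 9.19 and 9.27 with AICAR and 9.16, 9.15, 9.17 and 9.06 with vehicle. In WT MEFs they were 9.45, 9.42 and 9.58 with 991, 9.41, 9.53, 9.55 and 9.47 with AICAR and 8.81, 9.03, 8.79 and 8.93 with vehicle. With either compound, WT arrays rose above dKO vehicle arrays, although WT vehicle arrays started lower, and dKO AICAR arrays overlapped dKO vehicle arrays. The AICAR effect was 0.08 ± 0.05 (SE, adjusted p = 0.235) in dKO MEFs and 0.60 ± 0.05 (SE, adjusted p = 2.54e-11) in WT MEFs, and the genotype difference was 0.52 ± 0.07 (SE, adjusted p = 3.65e-06). The 991 effect was 0.11 ± 0.05 (SE, adjusted p = 0.267) in dKO MEFs and 0.60 ± 0.05 (SE, adjusted p = 3.28e-09) in WT MEFs. Sqle, squalene epoxidase, measured 12.13, 12.01, 11.97 and 12.04 in dKO MEFs with AICAR and 11.84, 11.89, 11.85 and 11.88 with vehicle. It measured 11.88, 11.86, 11.82 and 11.83 in WT MEFs with AICAR and 11.42, 11.50, 11.46 and 11.48 with vehicle. AICAR and vehicle arrays did not overlap in either genotype. The effect on Sqle was 0.17 ± 0.03 (SE, adjusted p = 2.8e-06) in dKO MEFs and 0.38 ± 0.03 (SE, adjusted p = 4.9e-13) in WT MEFs, and the genotype difference was 0.21 ± 0.04 (SE, adjusted p = 0.000233).

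A few synthesis genes went down with AICAR. In dKO MEFs these were Ebp (-0.18 ± 0.03), Pmvk (-0.16 ± 0.04) and Nsdhl (-0.15 ± 0.03), and in WT MEFs Nsdhl alone was called lower (-0.09 ± 0.03 (SE, adjusted p = 0.0398)). The WT call of Nsdhl was lost without WT AICAR replicate 1 or 4 or WT vehicle replicate 2, 3 or 4 (-0.09 to -0.07, adjusted p of 0.0577 to 0.144), and after quantile normalization the change of Nsdhl was -0.15. Ebp and Pmvk had effects of 0.02 ± 0.03 and 0.03 ± 0.04 in WT MEFs, and their genotype differences were 0.20 ± 0.05 (SE, adjusted p = 0.00262) and 0.18 ± 0.06 (SE, adjusted p = 0.0462). The difference for Pmvk, and that of 0.12 ± 0.04 (SE, adjusted p = 0.0447) for Fdps, the farnesyl diphosphate synthase, lay near the threshold, and each missed it when any of 11 of the arrays was left out. That of Fdps was 0.06 (adjusted p = 0.674) with the mean of its probe sets, and that of Pmvk 0.16 (adjusted p = 0.0554) after quantile normalization. Neither isoprenoid gene was called with AICAR in either genotype, with unadjusted limma p-values of 0.132 to 0.74.

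Insig1 parted from the synthesis genes with AICAR. In dKO MEFs, where most synthesis genes rose, Insig1 fell, and all 4 AICAR arrays lay below all 4 vehicle arrays. In WT MEFs its AICAR arrays overlapped the vehicle arrays. The effect was -0.43 ± 0.06 (SE, adjusted p = 8.12e-08), or 0.74-fold, in dKO MEFs and 0.08 ± 0.06 (SE, adjusted p = 0.281) in WT MEFs, and the genotype difference was 0.52 ± 0.08 (SE, adjusted p = 1.99e-05). Stard4 measured 10.28, 10.26, 10.29 and 10.24 in dKO MEFs with AICAR and 10.85, 10.71, 10.76 and 10.77 in WT MEFs with AICAR, above the vehicle arrays of its genotype in each case. Its AICAR effect was 0.26 ± 0.03 (SE, adjusted p = 1.49e-07) in dKO MEFs and 0.52 ± 0.03 (SE, adjusted p = 7.75e-14) in WT MEFs, with a genotype difference of 0.26 ± 0.05 (SE, adjusted p = 0.000251).

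For Srebf2 the AICAR effect was 0.08 ± 0.04 (SE, adjusted p = 0.153) in dKO MEFs, where the arrays spanned the upper end of the vehicle range and beyond, and 0.27 ± 0.04 (SE, adjusted p = 2.65e-06) in WT MEFs, where AICAR and vehicle arrays did not overlap. The genotype difference came to 0.20 ± 0.06 (SE, adjusted p = 0.0238). It was not called without dKO AICAR replicate 1 or 3, dKO vehicle replicate 2 or WT vehicle replicate 1 (0.18 to 0.19, adjusted p of 0.0519 to 0.0581), nor with the mean of its probe sets (0.10, adjusted p = 0.206). The call was also lost after quantile normalization (0.19, adjusted p = 0.0541) and without limma's intensity trend (0.20, adjusted p = 0.0518). Scap measured 9.91, 9.93, 9.94 and 9.89 in dKO MEFs with AICAR and 9.69, 9.65, 9.62 and 9.59 with vehicle. It measured 9.95, 10.12, 10.004 and 9.99 in WT MEFs with AICAR and 9.84, 10.05, 9.94 and 9.88 with vehicle. The dKO groups were apart and the WT groups overlapped. The effect on Scap was 0.28 ± 0.04 (SE, adjusted p = 1.07e-06) in dKO MEFs and 0.09 ± 0.04 (SE, adjusted p = 0.0942) in WT MEFs, and the genotype difference was -0.19 ± 0.06 (SE, adjusted p = 0.0271). That call was lost without dKO AICAR replicate 3, dKO vehicle replicate 3 or 4, WT AICAR replicate 1, 3 or 4 or WT vehicle replicate 2 (-0.19 to -0.15, adjusted p of 0.0513 to 0.0658), and the sign turned (0.03, adjusted p = 0.878) with the mean of its probe sets, where the dKO effect on Scap was 0.16.

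Tmem97 measured 10.16, 10.16, 10.17 and 10.12 in dKO MEFs with AICAR and 10.34, 10.39, 10.34 and 10.33 with vehicle. In WT MEFs it measured 10.38, 10.53, 10.47 and 10.44 with AICAR and 10.44, 10.48, 10.41 and 10.47 with vehicle. It changed by -0.20 ± 0.03 (SE, adjusted p = 5.03e-06) in dKO MEFs, where the groups were apart. The WT groups overlapped, at 0.00 ± 0.03 (SE, adjusted p = 0.928), and the genotype difference was 0.20 ± 0.04 (SE, adjusted p = 0.00226). Insig2 measured 9.44, 9.47, 9.39 and 9.43 in dKO MEFs with AICAR and 9.48, 9.50, 9.53 and 9.52 with vehicle. It measured 9.01, 9.004, 9.02 and 9.06 in WT MEFs with AICAR and 9.13, 9.23, 9.12 and 9.16 with vehicle. The WT groups were apart, with an effect of -0.14 ± 0.04 (SE, adjusted p = 0.00265), and the dKO effect was -0.08 ± 0.04 (SE, adjusted p = 0.0819). A second Insig2 probe set went the other way in WT MEFs (0.19 ± 0.04), so its direction there depends on the probe set, and the mean over Insig2 probe sets was -0.005 (adjusted p = 0.94). That second probe set is the one that stands for Insig2 in hepatocytes.

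Among the efflux genes Abca1 fell with AICAR in both genotypes, and Abcg1 and Mylip fell in dKO MEFs. The AICAR arrays given above lay between 5.83 and 6.24 over both genotypes, and the vehicle arrays between 6.86 and 7.16. The effect on Abca1 was -1.18 ± 0.07 (SE, adjusted p = 4.23e-15), or 0.443-fold, in dKO MEFs and -0.86 ± 0.07 (SE, adjusted p = 1.12e-11), or 0.55-fold, in WT MEFs. With the mean of its probe sets these effects were -0.46 in dKO MEFs and -0.37 in WT MEFs, and both were called. With AICAR the level of Abca1 was below the median intensity of the arrays, where intensities understate changes. The genotype difference was 0.31 ± 0.10 (SE, adjusted p = 0.0338), and it lost its call without dKO AICAR replicate 1 or 3, dKO vehicle replicate 2 or 3, WT AICAR replicate 1 or 3, or WT vehicle replicate 1, 3 or 4 (0.27 to 0.31, adjusted p of 0.0542 to 0.0822). It was 0.21 (adjusted p = 0.142) after quantile normalization and 0.09 (adjusted p = 0.587) with the mean of its probe sets. Abcg1 measured 6.59, 6.13, 6.43 and 6.36 in dKO MEFs with AICAR and 6.60, 6.61, 6.76 and 6.86 with vehicle. It measured 5.71, 5.57, 5.35 and 5.56 in WT MEFs with AICAR and 5.54, 5.76, 5.71 and 5.58 with vehicle. The dKO groups stood side by side without overlap and the WT groups overlapped. The effect on Abcg1 was -0.33 ± 0.10 (SE, adjusted p = 0.00784) in dKO MEFs and -0.10 ± 0.10 (SE, adjusted p = 0.488) in WT MEFs, and the dKO call was lost without dKO AICAR replicate 2 (-0.25, adjusted p = 0.057) and after quantile normalization (-0.20, adjusted p = 0.103).

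Mylip measured 8.81, 8.88, 8.87 and 8.88 in dKO MEFs with AICAR and 8.98, 9.08, 9.02 and 9.02 in WT MEFs with AICAR. The dKO arrays lay below all dKO vehicle arrays, and the WT arrays overlapped the WT vehicle arrays. The effect was -0.29 ± 0.04 (SE, adjusted p = 1.38e-06) in dKO MEFs and 0.05 ± 0.04 (SE, adjusted p = 0.393) in WT MEFs, and the genotype difference was 0.34 ± 0.06 (SE, adjusted p = 0.000194). Nr1h3 was not called with AICAR in either genotype. Side by side, Abca1 changed by 0.08 with 991 and -1.18 with AICAR in dKO MEFs, and by 0.63 with 991 and -0.86 with AICAR in WT MEFs.

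Without any activator, dKO and WT MEFs already differed in the sterol genes. In dKO against WT MEFs with vehicle 16 of the 29 were called higher and 3 lower, against 28.2% of all genes higher and 19.3% lower, so that 47.5% of all genes differed in either direction. Of the 17 synthesis genes 11 were higher and 0 lower, with a median of 0.25 beside 0.00 for all genes. The fibroblast markers differed too. Their summed log2 level was 12.11 to 12.22 on dKO vehicle arrays and 14.51 to 14.56 on WT vehicle arrays, and 5 of 7 were called lower in dKO MEFs, among them Col1a2 by -4.68 and Col3a1 by -2.25. Their part in the sterol gene differences was not tested, and cell line and genotype cannot be told apart.

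Tm7sf2, a sterol reductase that shares its step with the lamin B receptor, stood out. It measured 8.97, 9.03, 9.01 and 8.96 on dKO vehicle arrays and 7.98, 7.96, 7.96 and 7.88 on WT vehicle arrays. The groups were far apart, by 1.05 ± 0.05 (SE, adjusted p = 2.71e-17), or 2.07-fold. Ebp measured 11.27, 11.28, 11.26 and 11.21 on dKO vehicle arrays and 10.60, 10.73, 10.69 and 10.69 on WT vehicle arrays, also apart, by 0.58 ± 0.03 (SE, adjusted p = 2.75e-16). Hsd17b7 differed by 0.66 ± 0.03 (SE, adjusted p = 4.93e-18) and Cyp51 by 0.57 ± 0.03 (SE, adjusted p = 2.07e-16). The other synthesis genes called higher in dKO MEFs were Nsdhl (0.47), Sqle (0.40), Mvk (0.35, and 0.22 with the mean of its probe sets), Dhcr7 (0.25), Mvd (0.25), Fdps (0.18) and Msmo1 (0.16). Pmvk (0.08 ± 0.04 (SE, adjusted p = 0.13)), Idi1 (0.08 ± 0.04 (SE, adjusted p = 0.0657)), Hmgcs1 (0.02 ± 0.04 (SE, adjusted p = 0.764)), Fdft1 (-0.03 ± 0.03 (SE, adjusted p = 0.572)), Lss (0.10 ± 0.05 (SE, adjusted p = 0.0829)) and Sc5d (-0.04 ± 0.03 (SE, adjusted p = 0.377)) were not called.

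**Figure D3:**
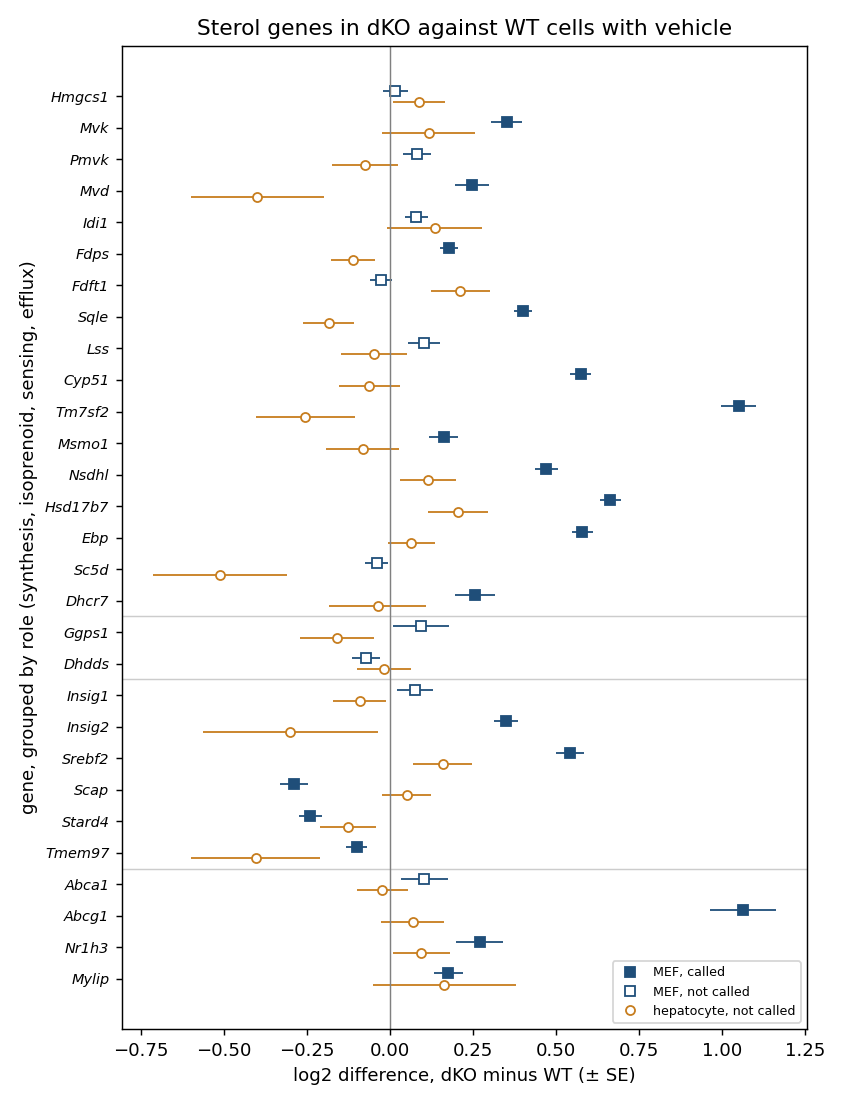
Difference between dKO and WT cells with vehicle for each sterol gene (log2 difference, horizontal axis), with squares for MEFs, circles for hepatocytes, filled symbols for called genes and bars for the standard error. In MEFs Tm7sf2 and Abcg1 lie furthest to the right, and no hepatocyte value was called.

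Among the regulators with vehicle, Srebf2 and Insig2 were higher and Scap lower in dKO MEFs. Srebf2 differed by 0.54 ± 0.04 (SE, adjusted p = 7.89e-13), or 1.46-fold, and its dKO and WT arrays, given above, did not overlap. Insig2 differed by 0.35 ± 0.04 (SE, adjusted p = 4.21e-10) and Scap by -0.29 ± 0.04 (SE, adjusted p = 3.37e-07), again without overlap, and Scap by -0.13 with the mean of its probe sets. Stard4 (-0.24 ± 0.03) and Tmem97 (-0.10 ± 0.03) were lower, and Insig1 was not called (0.08 ± 0.06 (SE, adjusted p = 0.293)). In the efflux group Abcg1 was higher in dKO MEFs by 1.06 ± 0.10 (SE, adjusted p = 8.97e-11), or 2.09-fold, though WT vehicle arrays at 5.54 to 5.76 lay below the array median. With the mean of its probe sets the difference of Abcg1 was 0.57 (adjusted p = 8.33e-07). Nr1h3 measured 5.95, 5.91, 6.03 and 5.98 on dKO vehicle arrays and 5.73, 5.61, 5.66 and 5.78 on WT vehicle arrays, likewise dim and apart, by 0.27 ± 0.07 (SE, adjusted p = 0.00177). Mylip was higher by 0.18 ± 0.04 (SE, adjusted p = 0.000835), or 0.11 after quantile normalization, and Abca1 was not called (0.10 ± 0.07 (SE, adjusted p = 0.245)).

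In hepatocytes with 991, Insig1, Abca1 and 5 others of the sterol genes were called higher in WT cells, and the genotype difference was called for Insig1. In dKO hepatocytes 0 of the 29 were called, against 0.00555% of all genes (1 gene) in limma, and at an unadjusted p under 0.05 there were 1 higher and 1 lower beside 814 of all genes (4.51%) in either direction. In WT hepatocytes 7 of the 29 were called higher and 0 lower, against 3.74% and 2.39% of all genes. The genotype difference was called for 1 gene, above 0, against 0.338% of all genes above 0 and 0.0832% below (0.421% either way). At an unadjusted p under 0.05 that difference was above 0 for 10 of the 29 and below 0 for none, beside 1407 of all genes (7.8%) in either direction. The median change of the 29 was -0.01 in dKO hepatocytes and 0.10 in WT hepatocytes, beside 0.01 and 0.03 for all genes. With WT preparation 2 left out, 1 of the 7 WT calls was kept, that of Insig1, and with WT preparation 1 left out there were 5 calls. Without the preparation block 2 genes were called in WT hepatocytes. With every array entered as a sample, the form of the MEF fit, 19 were called in WT hepatocytes and 12 for the genotype difference. That fit counts technical replicates as independent. The shares of all genes above come from the fit of preparation means, so these counts cannot be read against them. The MEF and hepatocyte counts were not compared by a test, and the doses of 991 differed.

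**Figure D4:**
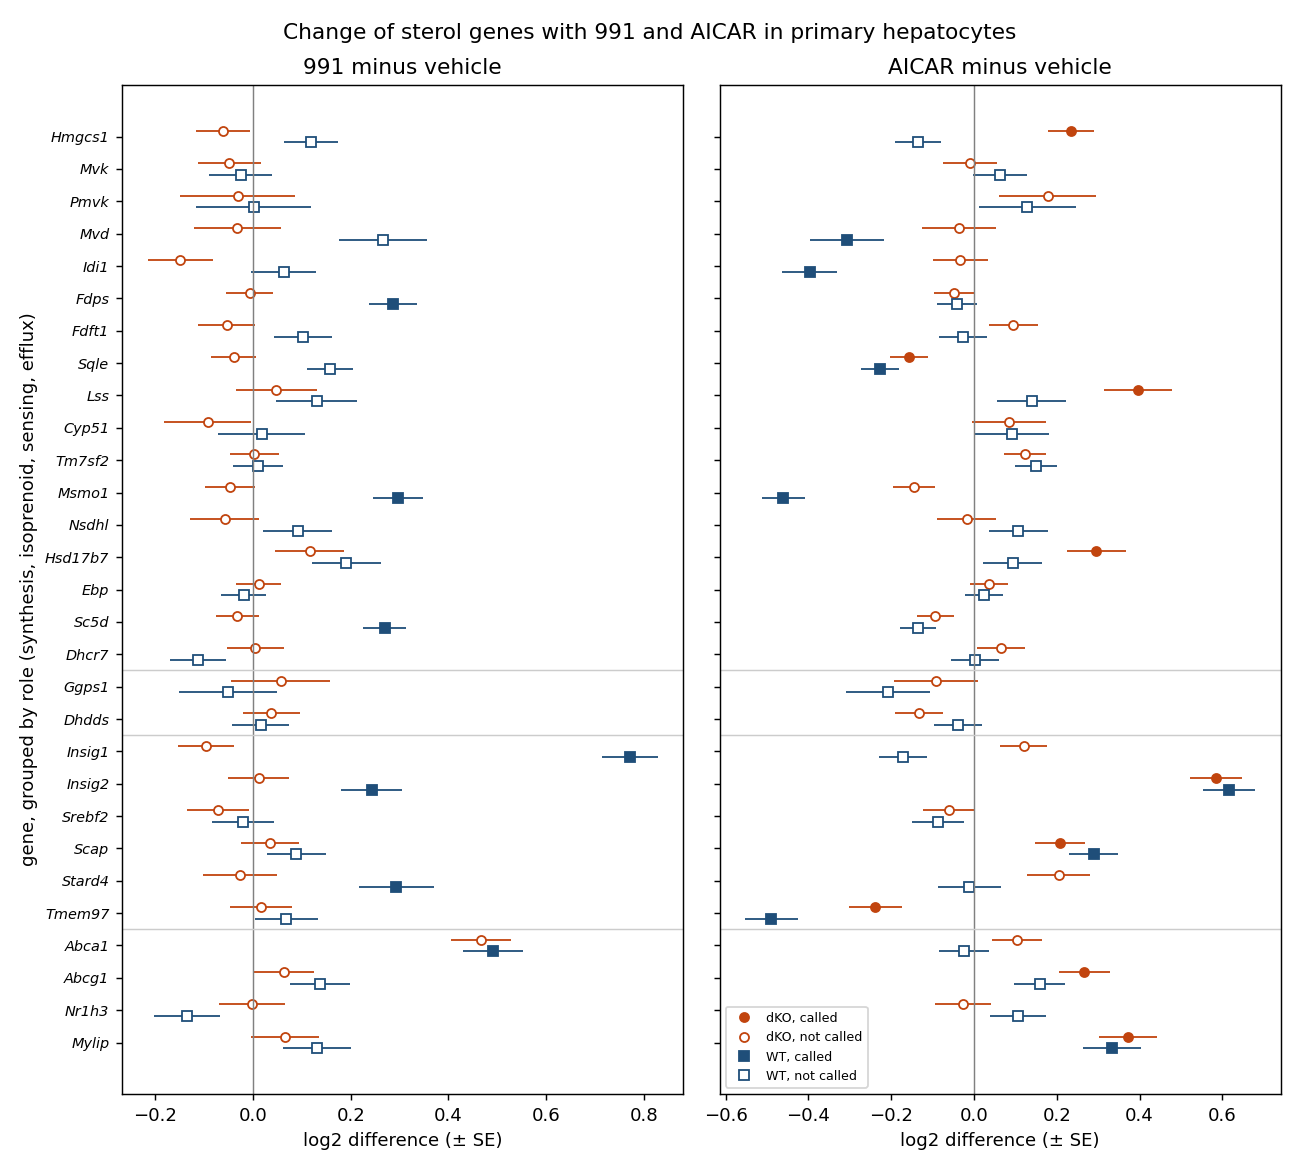
Change of each sterol gene in hepatocytes after 991 and after AICAR against vehicle (log2 difference, horizontal axis), in dKO and WT cells, with genes grouped by role down the page and bars for the standard error. With 991 Insig1 is at -0.10 in dKO and 0.77 in WT cells while Abca1 is at 0.47 in dKO and 0.49 in WT cells, and with AICAR Insig2 is at 0.58 in dKO and 0.62 in WT cells.

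Insig1 in dKO hepatocytes measured, for preparations 1 and 2, 9.54 and 9.44 with 991, 9.73 and 9.69 with AICAR and 9.54 and 9.64 with vehicle. It measured, in WT hepatocytes, 10.44 and 10.46 with 991, 9.50 and 9.52 with AICAR and 9.68 and 9.68 with vehicle. The WT preparations with 991 were the highest of all 12 preparation means, and dKO preparations with 991 were close to or below their vehicle. With 991 the effect was -0.10 ± 0.06 (SE, adjusted p = 0.998) in dKO hepatocytes and 0.77 ± 0.06 (SE, adjusted p = 4.24e-05), or 1.71-fold, in WT hepatocytes. The WT effect was the larger by 0.87 ± 0.08 (SE, adjusted p = 0.00146), with a 95% interval of 0.69 to 1.04. Without WT preparation 2 it was 0.86 (adjusted p = 0.0562).

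Abca1 was above vehicle with 991 in both genotypes and was called in WT cells only. In dKO hepatocytes it measured 10.16 and 10.16 with 991, 9.85 and 9.75 with AICAR and 9.73 and 9.67 with vehicle. In WT hepatocytes it measured 10.12 and 10.30 with 991, 9.69 and 9.70 with AICAR and 9.74 and 9.70 with vehicle. In each genotype both preparations with 991 lay above both with vehicle. The effect was 0.47 ± 0.06 (SE, adjusted p = 0.0618) with a 95% interval of 0.33 to 0.60 in dKO hepatocytes and 0.49 ± 0.06 (SE, adjusted p = 0.00101), or 1.41-fold, in WT hepatocytes. The genotype difference came to 0.02 ± 0.09 (adjusted p = 0.97), with a 95% interval of -0.17 to 0.21. Without WT preparation 2 the WT effect was 0.38 (adjusted p = 0.073).

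Of the synthesis genes Msmo1, Fdps and Sc5d were called with 991 in WT hepatocytes. Msmo1, the methylsterol monooxygenase, measured 11.57 and 11.39 with 991, 11.54 and 11.21 with AICAR and 11.59 and 11.46 with vehicle in dKO hepatocytes. It measured, in WT hepatocytes, 11.80 and 12.002 with 991, 11.07 and 11.21 with AICAR and 11.47 and 11.74 with vehicle. The WT preparations with 991 lay above those with vehicle, and both were higher than their own vehicle. The effect was -0.05 ± 0.05 (SE, adjusted p = 0.998) in dKO hepatocytes and 0.30 ± 0.05 (SE, adjusted p = 0.00583) in WT hepatocytes, and the genotype difference was 0.34 ± 0.07 (adjusted p = 0.0915). Fdps measured 11.50 and 11.41 in dKO hepatocytes with 991 and 11.44 and 11.48 with vehicle. It measured 11.80 and 11.92 in WT hepatocytes with 991 and 11.55 and 11.60 with vehicle. The WT groups were apart and the dKO groups overlapped. The effect on Fdps was -0.01 ± 0.05 (SE, adjusted p = 0.998) in dKO hepatocytes and 0.29 ± 0.05 (SE, adjusted p = 0.00526) in WT hepatocytes, with a difference of 0.29 ± 0.07 (adjusted p = 0.132). Fdps was not called with the mean of its probe sets (0.18, adjusted p = 0.0617).

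Sc5d measured 10.49 and 10.93 in dKO hepatocytes with 991 and 10.51 and 10.97 with vehicle. In WT hepatocytes it measured 11.71 and 11.33 with 991 and 11.47 and 11.04 with vehicle. Levels overlapped between 991 and vehicle, but each WT preparation was higher with 991 than with its own vehicle. The effect was -0.03 ± 0.04 (SE, adjusted p = 0.998) in dKO hepatocytes and 0.27 ± 0.04 (SE, adjusted p = 0.00425) in WT hepatocytes, with a difference of 0.30 ± 0.06 (adjusted p = 0.0858). Without WT preparation 2 neither Msmo1, Fdps nor Sc5d was called in WT hepatocytes (0.33, 0.26 and 0.25, adjusted p of 0.106, 0.153 and 0.115), and Msmo1 was not called without WT preparation 1 either (0.26, adjusted p = 0.103). The other 14 synthesis genes were not called in WT hepatocytes, and their changes ran between -0.11 (Dhcr7) and 0.27 (Mvd).

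Stard4 and Insig2 were called with 991 in WT hepatocytes close to the threshold. Stard4 measured 7.79 and 7.70 in dKO hepatocytes with 991 and 7.73 and 7.80 with vehicle. It measured 8.24 and 8.13 in WT hepatocytes with 991 and 7.95 and 7.84 with vehicle. The WT groups were apart and the dKO groups overlapped. The effect was -0.03 ± 0.08 (SE, adjusted p = 0.998) in dKO hepatocytes and 0.29 ± 0.08 (SE, adjusted p = 0.0456) in WT hepatocytes, and it lost its call without either WT preparation (adjusted p of 0.175 and 0.365). Insig2 had an effect of 0.01 ± 0.06 (SE, adjusted p = 0.998) in dKO hepatocytes and 0.24 ± 0.06 (SE, adjusted p = 0.0427) in WT hepatocytes, with overlapping levels, and was not called without WT preparation 2 (adjusted p = 0.082). The changes of Insig2 from the vehicle of the same preparation, for preparations 1 and 2, were 0.03 and -0.01 in dKO and 0.24 and 0.25 in WT hepatocytes. Srebf2 in dKO hepatocytes measured 8.40 and 8.19 with 991, 8.43 and 8.19 with AICAR and 8.41 and 8.33 with vehicle. It measured, in WT hepatocytes, 8.12 and 8.27 with 991, 8.004 and 8.24 with AICAR and 8.15 and 8.27 with vehicle. These levels overlapped throughout, and the 991 effect was -0.07 ± 0.06 (SE, adjusted p = 0.998) in dKO hepatocytes and -0.02 ± 0.06 (SE, adjusted p = 0.869) in WT hepatocytes.

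**Figure D5:**
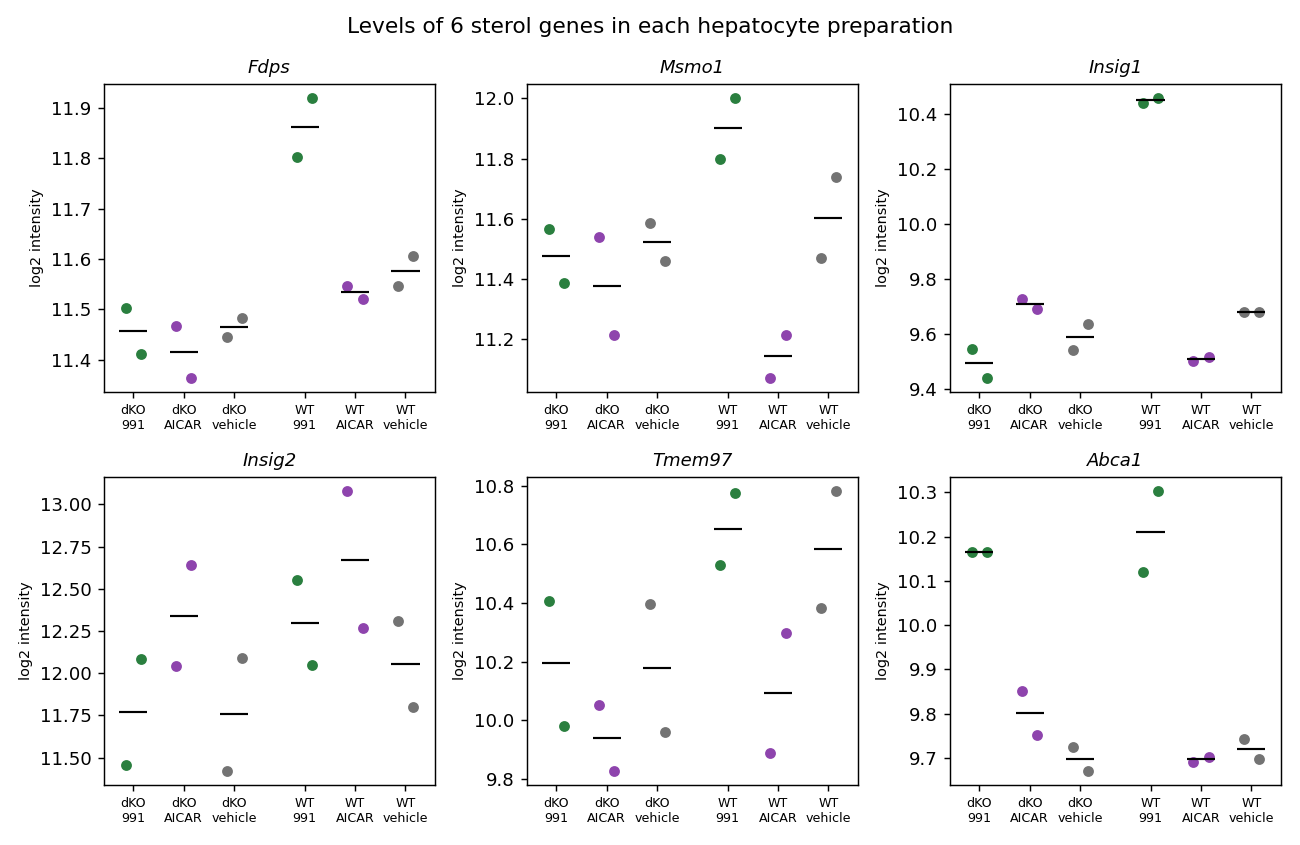
Log2 intensity (vertical axis) of Fdps, Msmo1, Insig1, Insig2, Tmem97 and Abca1 in hepatocytes, with points for preparation means and bars for group means, in the order dKO 991, dKO AICAR, dKO vehicle, WT 991, WT AICAR and WT vehicle. Insig1 stands out with 991 in WT cells at 10.44 and 10.46, and Abca1 is above vehicle with 991 in both genotypes.

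AICAR moved the hepatocyte sterol genes in both directions. In dKO hepatocytes 7 of the 29 were called higher and 2 lower, against 10.6% and 7.31% of all genes (17.9% either way). In WT hepatocytes 3 were called higher and 5 lower, against 8.56% and 8.02% of all genes. The genotype difference was called for 0 of the 29, against 0.311% of all genes in limma. At an unadjusted p under 0.05 that difference was below 0 for 5 and above 0 for none of the 29, beside 1579 of all genes (8.76%) in either direction. In dKO hepatocytes 3 of the 17 synthesis genes passed as higher and 1 as lower, and in WT hepatocytes 0 as higher and 4 as lower. With dKO preparation 1 left out 1 of the 29 was called in dKO hepatocytes, and with WT preparation 1 left out 5 were called in WT hepatocytes. Without the preparation block 1 was called in each genotype. After quantile normalization the share of higher among all calls in dKO hepatocytes was 49.0% (59.1% as deposited), and the sterol genes again counted 7 higher and 2 lower.

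Markers of other liver cells moved with AICAR as well. In dKO hepatocytes 4 of 6 macrophage markers and 3 of 5 endothelial markers were called higher, against 10.6% of all genes. In WT hepatocytes 1 of 6 and 2 of 5 were, against 8.56%, and the macrophage count there lay near that share. Of 4 cholangiocyte markers 1 was called lower in each genotype, Sox9, at -0.37 in dKO and -0.58 in WT hepatocytes, against 7.31% and 8.02% of all genes. Of 7 fibroblast and stellate markers 1 was called higher in dKO and 0 in WT hepatocytes. The summed endothelial level was 9.73 to 10.14 on dKO AICAR arrays, against 9.40 to 9.76 on dKO vehicle arrays. It was 9.79 to 10.21 on WT AICAR arrays, against 9.38 to 9.79 on WT vehicle arrays. The summed macrophage level was 10.84 to 11.26 on dKO AICAR arrays, against 10.66 to 10.95 on dKO vehicle arrays. It was 11.10 to 11.43 on WT AICAR arrays, against 10.81 to 11.41 on WT vehicle arrays. Of the 7 hepatocyte markers 5 were also called higher in dKO hepatocytes and 3 in WT hepatocytes. With 991, where only 0.00555% of all genes in dKO and 6.13% in WT hepatocytes were called either way, no macrophage or endothelial marker was called. The part of these cells in the AICAR changes of the sterol genes was not tested.

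Among the synthesis genes the calls with AICAR differed between the genotypes, although no test of the difference passed. Lss measured 9.64 and 9.54 in dKO hepatocytes with AICAR and 9.09 and 9.30 with vehicle. It measured 9.50 and 9.27 in WT hepatocytes with AICAR and 9.27 and 9.22 with vehicle. Both dKO preparations with AICAR lay above both with vehicle. The effect was 0.40 ± 0.08 (SE, adjusted p = 0.00715) in dKO hepatocytes and 0.14 ± 0.08 (SE, adjusted p = 0.28) in WT hepatocytes. Hsd17b7 measured 10.35 and 10.36 in dKO hepatocytes with AICAR and 9.99 and 10.12 with vehicle. It measured 10.01 and 9.88 in WT hepatocytes with AICAR and 9.79 and 9.91 with vehicle. The dKO groups were apart and the WT groups overlapped. The effect on Hsd17b7 was 0.30 ± 0.07 (SE, adjusted p = 0.0145) in dKO hepatocytes and 0.09 ± 0.07 (SE, adjusted p = 0.397) in WT hepatocytes, with a dKO effect of 0.20 (adjusted p = 0.0245) by the mean of its probe sets.

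Hmgcs1 measured 12.09 and 11.98 in dKO hepatocytes with AICAR and 11.77 and 11.82 with vehicle. In WT hepatocytes it measured 11.59 and 11.56 with AICAR and 11.63 and 11.79 with vehicle. The preparations with AICAR lay above vehicle in dKO cells and below it in WT cells. The effect was 0.23 ± 0.06 (SE, adjusted p = 0.0135) in dKO hepatocytes and -0.14 ± 0.06 (SE, adjusted p = 0.121) in WT hepatocytes, and the genotype difference was -0.37 ± 0.08 (adjusted p = 0.134, 95% interval -0.54 to -0.20). Of the 5 Hmgcs1 probe sets 4 gave a dKO effect of 0.23 to 0.26, and the dimmest, at a mean level of 4.4, gave -0.65, so that their mean was 0.07 (adjusted p = 0.462). Without dKO preparation 1 the dKO effects on Lss, Hsd17b7 and Hmgcs1 were 0.25, 0.24 and 0.15 and were not called (adjusted p of 0.251, 0.197 and 0.309).

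In WT hepatocytes the called synthesis genes went down with AICAR. Msmo1, whose levels were given above, fell below all vehicle preparations in WT cells and had effects of -0.15 ± 0.05 (SE, adjusted p = 0.0735) in dKO hepatocytes and -0.46 ± 0.05 (SE, adjusted p = 0.00024) in WT hepatocytes. A second Msmo1 probe set at a mean level of 5.4 gave 0.28 in WT hepatocytes, and the mean over probe sets was -0.09 (adjusted p = 0.296). Idi1 measured 10.91 and 10.48 in dKO hepatocytes with AICAR and 10.80 and 10.66 with vehicle. It measured 10.07 and 10.32 in WT hepatocytes with AICAR and 10.40 and 10.79 with vehicle. The WT groups were apart and the dKO groups overlapped, with effects of -0.03 ± 0.07 (SE, adjusted p = 0.79) in dKO hepatocytes and -0.40 ± 0.07 (SE, adjusted p = 0.00257) in WT hepatocytes. Mvd measured 7.48 and 7.35 in WT hepatocytes with AICAR and 7.99 and 7.45 with vehicle, with overlap, and the effect of -0.31 ± 0.09 (SE, adjusted p = 0.0376) was -0.10 (adjusted p = 0.513) without WT preparation 1 and -0.51 (adjusted p = 0.017) without WT preparation 2. In dKO hepatocytes the effect on Mvd was -0.04 ± 0.09 (SE, adjusted p = 0.828). Sqle was called lower in both, at -0.16 ± 0.05 (SE, adjusted p = 0.038) in dKO hepatocytes and -0.23 ± 0.05 (SE, adjusted p = 0.00721) in WT hepatocytes. Without WT preparation 2 the WT effect on Idi1 was -0.33 (adjusted p = 0.0741), and Sqle was called neither without dKO preparation 1 or 2 (adjusted p of 0.124 and 0.413) nor without WT preparation 1 (adjusted p = 0.121).

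Of the sensing genes Insig2 rose and Tmem97 fell with AICAR in both genotypes. In hepatocytes Insig2 is read from the probe set that also rose in WT MEFs with AICAR, not from the one used in MEFs. Insig2 measured 12.04 and 12.64 in dKO hepatocytes with AICAR and 11.42 and 12.09 with vehicle. It measured 13.08 and 12.27 in WT hepatocytes with AICAR and 12.31 and 11.80 with vehicle. Preparations differed as much as treatments, so levels overlapped, but each of the 4 preparations rose over its own vehicle. The effect was 0.58 ± 0.06 (SE, adjusted p = 0.000118), or 1.5-fold, in dKO hepatocytes and 0.62 ± 0.06 (SE, adjusted p = 0.000133), or 1.53-fold, in WT hepatocytes, and it is not called in either without the preparation block (adjusted p of 0.406 and 0.362). The genotype difference came to 0.03 ± 0.09 (adjusted p = 0.954, 95% interval -0.16 to 0.23). Tmem97 measured 10.05 and 9.83 in dKO hepatocytes with AICAR and 10.40 and 9.96 with vehicle. It measured 9.89 and 10.30 in WT hepatocytes with AICAR and 10.38 and 10.78 with vehicle. Each preparation was lower with AICAR than with vehicle, and dKO levels overlapped across preparations. The effect on Tmem97 was -0.24 ± 0.06 (SE, adjusted p = 0.0241) in dKO hepatocytes and -0.49 ± 0.06 (SE, adjusted p = 0.000579) in WT hepatocytes, and the dKO effect was -0.13 (adjusted p = 0.491) without dKO preparation 1.

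Scap measured 10.27 and 10.34 in dKO hepatocytes with AICAR and 10.08 and 10.12 with vehicle. It measured, in WT hepatocytes, 10.41 and 10.26 with AICAR and 10.05 and 10.04 with vehicle. The groups were apart in both genotypes, by 0.21 ± 0.06 (SE, adjusted p = 0.0328) in dKO hepatocytes and 0.29 ± 0.06 (SE, adjusted p = 0.00731) in WT hepatocytes. Its second probe set, at a mean level of 5.94 and below the array median, went the other way, by -0.90 in dKO hepatocytes and -0.79 in WT hepatocytes, so the direction of Scap depends on the probe set. Leaving out dKO preparation 1, dKO preparation 2 or WT preparation 1 also ended the calls of Scap (adjusted p of 0.227, 0.208 and 0.0997). Insig1 was not called with AICAR, at 0.12 ± 0.06 (SE, adjusted p = 0.183) in dKO hepatocytes and -0.17 ± 0.06 (SE, adjusted p = 0.0636) in WT hepatocytes, and neither was Srebf2, at -0.06 ± 0.06 (SE, adjusted p = 0.578) in dKO hepatocytes and -0.09 ± 0.06 (SE, adjusted p = 0.378) in WT hepatocytes.

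In the efflux group Mylip rose with AICAR in both genotypes and Abca1 was not called. Mylip measured 8.77 and 8.36 in dKO hepatocytes with AICAR and 8.39 and 8.01 with vehicle. It measured 8.15 and 8.59 in WT hepatocytes with AICAR and 7.76 and 8.30 with vehicle. Levels overlapped across preparations, and each preparation was higher than its own vehicle. The effect was 0.37 ± 0.07 (SE, adjusted p = 0.00398) in dKO hepatocytes and 0.33 ± 0.07 (SE, adjusted p = 0.00788) in WT hepatocytes, and it was not called without dKO preparation 1 (adjusted p = 0.0698) or without WT preparation 1 (adjusted p = 0.109). Abcg1 measured 7.60 and 7.42 in dKO hepatocytes with AICAR and 7.31 and 7.17 with vehicle. It measured 7.29 and 7.38 in WT hepatocytes with AICAR and 7.10 and 7.25 with vehicle. The groups were apart, with effects of 0.27 ± 0.06 (SE, adjusted p = 0.0117) in dKO hepatocytes and 0.16 ± 0.06 (SE, adjusted p = 0.102) in WT hepatocytes, and the dKO call was lost without either dKO preparation (adjusted p of 0.231 and 0.1001). Abca1 had effects of 0.10 ± 0.06 (SE, adjusted p = 0.288) in dKO hepatocytes and -0.02 ± 0.06 (SE, adjusted p = 0.82) in WT hepatocytes, beside 0.47 ± 0.06 and 0.49 ± 0.06 with 991, which shares the vehicle preparations.

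Between dKO and WT hepatocytes with vehicle 0 of the 29 sterol genes were called in limma, against 0.0% of all genes, and at an unadjusted p under 0.05 there were 0 higher and 1 lower beside 837 of all genes (4.64%) in either direction. This comparison rests on 4 preparation means. The largest differences were -0.51 ± 0.20 (SE, adjusted p = 0.993) for Sc5d, -0.40 ± 0.19 (SE, adjusted p = 0.993) for Tmem97 and -0.40 ± 0.20 (SE, adjusted p = 0.993) for Mvd. The MEF differences in Tm7sf2 (1.05 ± 0.05) and Abcg1 (1.06 ± 0.10) stood beside -0.26 ± 0.15 and 0.07 ± 0.09 in hepatocytes.

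Lists of neighbouring genes were read beside the shares of all genes called with 991, which were 1.91% higher and 1.61% lower in dKO MEFs and 14.2% higher and 5.68% lower in WT MEFs. Of 11 fatty acid synthesis genes, 1 was called lower and 0 higher in dKO MEFs with 991 (Fasn, the fatty acid synthase, at -0.12), and in WT MEFs 8 were called higher and 0 lower. The largest WT rise was that of Acss2, which makes cytosolic acetyl-CoA, by 0.76, and the genotype difference was called above 0 for 5 of the 11 (4.42% of all genes), among them Acss2 (0.61), Fasn (0.29) and Elovl6 (0.27). Of 8 genes of SREBP processing and reductase degradation, 0 were called in dKO MEFs and 1 higher in WT MEFs (Mbtps2, the protease of the second SREBP cut, by 0.15). Of 15 genes that use isoprenoids, 0 were called in dKO MEFs and 3 higher in WT MEFs. Of 17 genes of sterol transport and esterification, 1 was called higher in dKO MEFs, and 5 higher and 1 lower in WT MEFs. Npc1, which lets cholesterol out of lysosomes, was at -0.06 in dKO MEFs and called higher in WT MEFs by 0.40. In WT MEFs the counts of the SREBP processing and isoprenoid lists lay near the share of all genes. With AICAR the shares of all genes were 20.6% higher and 19.8% lower in dKO MEFs and 19.7% and 15.5% in WT MEFs. In dKO MEFs calls higher and lower then numbered 2 and 3 for fatty acid genes and 2 and 4 for SREBP processing. They numbered 7 and 4 for isoprenoid use and 6 and 6 for transport. In WT MEFs they numbered 3 and 1, 2 and 3, 6 and 3, and 5 and 4 for these lists in turn. These calls are from the limma fits over all genes.

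In hepatocytes with 991, where 0.00555% of all genes were called in dKO cells and 3.74% higher and 2.39% lower in WT cells, of the 11 fatty acid genes 0 were called in dKO and 1 higher in WT cells. That gene was Acacb, an acetyl-CoA carboxylase, at 0.05 in dKO and 0.52 in WT hepatocytes. Of the 17 transport genes 0 were called in dKO and 2 higher in WT cells, Npc1 at 0.27 in dKO and 0.79 in WT hepatocytes and Npc2 at 0.04 in dKO and 0.15 in WT hepatocytes. In WT hepatocytes with 991, 1 of 8 SREBP processing genes was called lower (Rnf139, -0.22). There 1 of 15 isoprenoid use genes (Rabggtb, 0.22) and 1 of 6 oxysterol enzymes (Hsd3b7, 0.24) were called higher. In dKO hepatocytes 0 genes of these 3 lists were called. With AICAR the shares of all genes were 10.6% higher and 7.31% lower in dKO hepatocytes and 8.56% higher and 8.02% lower in WT hepatocytes, and 2 fatty acid genes were called higher and 3 lower in each genotype, with Acacb at 0.67 in dKO and 0.84 in WT hepatocytes and the elongase Elovl6 at -0.61 in dKO and -0.66 in WT hepatocytes. Rnf145, an INSIG-bound ubiquitin ligase, was lower with AICAR by -0.96 ± 0.07 in dKO hepatocytes and by -1.17 ± 0.07 in WT hepatocytes, in a list of 8 where 2 were called lower in dKO and 1 in WT hepatocytes. Of the 17 transport genes 3 were called higher in dKO and 4 in WT hepatocytes with AICAR, and 0 lower in either. Abcg8, which with Abcg5 exports sterols into bile, was called higher with AICAR in both, by 0.31 in dKO and 0.33 in WT hepatocytes. Abcg5 was at 0.28 ± 0.09 (SE, adjusted p = 0.0669) in dKO hepatocytes and 0.45 ± 0.09 (SE, adjusted p = 0.00767) in WT hepatocytes. Of 6 LXR partners and targets, 1 was called higher and 1 lower in dKO hepatocytes with AICAR, and 3 higher and 1 lower in WT hepatocytes, with Rxra, a partner of LXR, at 0.52 in dKO and 0.50 in WT hepatocytes. Of 6 oxysterol enzymes 2 were called higher and 0 lower with AICAR in each genotype. Among them Cyp7a1, the rate-limiting enzyme of bile acid synthesis, was at 0.62 ± 0.31 (SE, adjusted p = 0.201) in dKO hepatocytes with AICAR and 1.13 ± 0.31 (SE, adjusted p = 0.0282) in WT hepatocytes.

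The genes were read through 1 probe set each, the brightest, and 19 of the 29 had others. The same probe set was brightest in both cell types for 26 of the 29, but not for Mvd, Ggps1 and Insig2. Over all 64 sterol probe sets with 991, 7 were called higher and 0 lower in dKO MEFs, 41 higher and 0 lower in WT MEFs, and 28 had a called genotype difference above 0 and 0 below. Among all 34741 probe sets tested, 425 were called higher and 371 lower in dKO MEFs, and 3877 higher and 1346 lower in WT MEFs. The genotype difference was called above 0 for 1046 of all probe sets and below 0 for 205. The probe sets that stand for Hsd17b7, Fdft1 and Lss, and those for Mvd and Ggps1 in hepatocytes, are of designs that can share signal with related sequences.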

How the data were processed

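The authors deposited a log2 intensity for each probe set and array, made with RMA and Partek per the submitters' processing notes. Their versions, the array annotation and whether the cell types were normalized together are not given in the sources used here, and arrays of this kind have no read depth, so their number limits the precision. Per the series' design text, the authors left out 1 outlying array per cell type (WT 991 MEF technical replicate 1, dKO vehicle hepatocyte technical replicate 4 of preparation 1). All 82 others were used.

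Of 45101 probe sets, 34945 had 1 symbol, 932 several and 9160 none, and 34741 matched a RefSeq gene table by Entrez identifier. They represent 18032 genes, each read from its brightest probe set on average over the arrays of the cell type. The sterol genes and all gene lists were chosen with earlier results of these data known. Values on every sample are given for up to 3 called genes of largest change per role and comparison and for Srebf2, Insig1 and Abca1, and up to 3 called genes per pathway list are named.

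Tests used limma 3.58.1 under R 4.3.3 (lmFit, then eBayes with an intensity trend), with Benjamini-Hochberg adjustment over all genes and a threshold of 0.05. MEF arrays entered singly (6 group means, 17 residual degrees of freedom). Hepatocyte technical replicates were averaged to 12 preparation means with preparation within genotype as a block (4 degrees of freedom), and dKO against WT used 4 vehicle means (2 degrees of freedom). On simulated data with 100 genes changed by 0.6, 93% were called in the MEF test and 100% in the hepatocyte test of 991 in WT cells, and 67% and 66% of 100 genes changed by 0.3, but 3.03% of the MEF and 8.79% of the hepatocyte calls (5 of 165 and 16 of 182) were of unchanged genes, so the hepatocyte test exceeded the threshold of 0.05 in this single simulation. Technical replicate numbers did not pair MEF arrays (median correlation 0.018 for same-numbered and -0.021 for other pairs of deviations, with 19 of 55 same-numbered pairs over 0.1). Alternatives were quantile normalization, a level filter, other probe set rules, no trend, a changed block, every hepatocyte array as a sample, and leaving out each array or preparation. Tables and figures were made with Python 3.11.15, pandas 2.3.3 and matplotlib 3.10.9.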

Additional observations from a re-analysis of the deposited data

Results flagged for a closer look

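In MEFs, 7 of 145 combinations of a sterol gene and a group of 4 arrays held an array far from the others, and chance gives about 1 in 20. They were Abca1 on dKO 991 replicate 1 (7.06, low), Nr1h3 on dKO AICAR replicate 4 (6.10, high), Mylip on dKO AICAR replicate 1 (8.81, low), Hsd17b7 on dKO vehicle replicate 2 (10.03, high), Tmem97 on dKO vehicle replicate 2 (10.39, high), Fdft1 on WT vehicle replicate 1 (10.84, low) and Sc5d on WT vehicle replicate 1 (10.49, low).

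Differences between genotypes that passed the limma test of the difference itself (the WT effect minus the dKO effect, log2) call for a closer look. In MEFs with 991 they were Hsd17b7 0.59, Abca1 0.55, Hmgcs1 0.50, Lss 0.49, Mvd 0.49, Msmo1 0.48, Fdft1 0.46, Insig1 0.45, Dhcr7 0.41, Idi1 0.34, Stard4 0.32, Sqle 0.31, Pmvk 0.28, Sc5d 0.26 and Cyp51 0.23. In MEFs with AICAR they were Insig1 0.52, Mvd 0.52, Hsd17b7 0.35, Mylip 0.34, Abca1 0.31, Stard4 0.26, Sqle 0.21, Ebp 0.20, Tmem97 0.20, Srebf2 0.20, Pmvk 0.18, Fdps 0.12 and Scap -0.19. In hepatocytes with 991 Insig1 alone passed, at 0.87.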

How the results depend on the processing

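MEF p-values measure technical spread only, and hepatocyte tests rest on 2 preparations per genotype. Over the 109 MEF calls of single sterol genes, a replicate block by technical replicate number ended none. Its counts were 18 with AICAR in WT cells (17 as reported), 14 for the AICAR genotype difference (13), 20 for dKO against WT with vehicle (19), and equal for the other 4 comparisons. Leaving out 1 MEF array kept 1002 calls and ended 57. The count with 991 in dKO MEFs, 2 as reported, was 5 among genes at or above the median level, 4 with the mean of all probe sets, and 2 to 4 with 1 array left out. The count for the genotype difference with AICAR in MEFs was 8 to 14 with 1 array left out. Quantile normalization kept every count of sterol genes within 1.5 times. With the mean of all probe sets Scap reversed, to 0.031 for the AICAR genotype difference in MEFs, to -0.35 with AICAR in dKO hepatocytes and to -0.25 in WT hepatocytes, where its 2 probe sets oppose each other. In hepatocytes, with no replicate block 20 of 25 calls were lost, and the counts were 2 with 991 in WT, 1 with AICAR in dKO and 1 with AICAR in WT cells. With every array as a sample, which counts technical replicates as independent, the counts were 2 with 991 in dKO, 19 with 991 in WT, 12 for the 991 genotype difference, 17 with AICAR in dKO, 17 with AICAR in WT, 10 for the AICAR difference and 11 for dKO against WT with vehicle. The hepatocyte shares of all genes given above come from the fit of preparation means, so these counts cannot be read against them. With 1 preparation left out, the lone preparation being assumed to vary like the others, the counts were 1 to 5 with 991 in WT, 0 to 1 for the 991 difference, 1 to 6 with AICAR in dKO and 5 to 10 with AICAR in WT cells.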
